A study of Mus musculus with 10 samples.

Results

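The RNA levels of 10 genes of the endoplasmic reticulum (ER) folding machinery and the unfolded protein response were examined in mouse liver after activation of the death receptor CD95 (Fas). The genes are Hspa5, Hsp90b1, Hyou1, Pdia4, Dnajb9, Sdf2l1, Manf, Xbp1, Herpud1 and Edem1. They were taken by name from a fixed list, which was chosen with earlier results of these data known. All 10 were present among the 38922 genes in the files. Livers came from wild-type male C57BL/6N mice, a common inbred strain, aged 6 weeks and killed 6 h after an intraperitoneal injection. The 5 mice of the CD95-Ab group received 0.5 µg/g body weight of a CD95-activating antibody, and the 5 mice of the saline group received an equal volume of saline. CD95-Ab serves as a model of acute liver failure because hepatocytes, which express CD95, die rapidly after it is engaged. RNA was taken from whole liver and sequenced, with 1 library per mouse and between 25965699 and 62097636 counts per library. In such bulk RNA, fewer cells of a type and less RNA per cell cannot be told apart.

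The ER folds proteins that are secreted or sit in membranes, and hepatocytes make large amounts of plasma proteins through it. When unfolded proteins accumulate, the sensors IRE1, PERK and ATF6 in the ER membrane start the unfolded protein response. IRE1 splices the Xbp1 mRNA so that it encodes an active transcription factor, ATF6 is cleaved to release another, and PERK phosphorylates the initiation factor eIF2α, which slows translation while favouring that of ATF4. XBP1 and ATF6 act on genes for chaperones and for ER-associated degradation through short promoter elements, among them the ER stress elements ERSE and ERSE-II and the unfolded protein response element UPRE.

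These elements were searched on both strands in RefSeq promoter windows (GRCm38.p6), which run from 250 bases before to 50 bases after each start. Distances are counted from this RefSeq start, whereas the gene positions given further below come from GENCODE, and the starts can differ. The ERSE of Hspa5 lies before its RefSeq start but inside its GENCODE span. The letters searched were CCAAT and CCACG with any 9 bases between them for ERSE, ATTGG and CCACG with any 1 base between them for ERSE-II, and TGACGTGG for UPRE, and none of these motifs contains another, although all hold CCACG on either strand. Of the 10 genes, 8 had a window, whereas Hyou1 and Manf had no window in the table used here. ERSE occurred in 0.1187% of 32851 windows, ERSE-II in 0.0365% and UPRE in 0.6758%. Exact matches were found for Hspa5, Hsp90b1 and Herpud1, and they are shown because these genes carry the canonical letters and changed to different extents or in opposite directions. Capitals mark the fixed letters, and each sequence reads 5′ to 3′ on the strand of the match.
Hspa5 ERSE, 65 to 47 bases before the start, chr2:34772025-34772043, strand of the gene: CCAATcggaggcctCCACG
Hsp90b1 ERSE, 212 to 194 bases before the start, chr10:86705638-86705656, strand of the gene: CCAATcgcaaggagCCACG
Hsp90b1 ERSE, 107 to 89 bases before the start, chr10:86705533-86705551, opposite strand: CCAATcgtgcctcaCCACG
Herpud1 ERSE-II, 52 to 42 bases before the start, chr8:94386377-94386387, strand of the gene: ATTGGgCCACG
Of the other pathway lists described below, 8 tested genes held an exact ERSE. Of these, 2, Creld2 and Syvn1, rose and 6, Calr, Canx, Dnajc3, Pdia6, Ero1b and Derl3, did not pass the test. The log2 fold changes of the 6 lay between 0.23 for Canx and 0.95 for Derl3. Among all tested genes, 25.4% rose. The sites of both that rose and of 2 of the 6 are shown for comparison.
Creld2 ERSE, 126 to 108 bases before the start, chr15:88819520-88819538, opposite strand: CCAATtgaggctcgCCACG
Syvn1 ERSE, 44 to 26 bases before the start, chr19:6046532-6046550, strand of the gene: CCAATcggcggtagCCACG
Calr ERSE, 162 to 144 bases before the start, chr8:84847075-84847093, opposite strand: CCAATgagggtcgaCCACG
Canx ERSE, 145 to 127 bases before the start, chr11:50325800-50325818, strand of the gene: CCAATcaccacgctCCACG

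The sequence around the sites of Hsp90b1 and Herpud1 is given on the strand of each gene, because these genes hold the most matches and the only decrease, respectively. Capitals mark the exact matches, and the match on the opposite strand of Hsp90b1 therefore appears as its reverse complement. The Hsp90b1 stretch covers 250 to 66 bases before the start and the Herpud1 stretch the 250 bases before it. Both lie outside annotated exons.
Hsp90b1, chr10:86705510-86705694, minus strand: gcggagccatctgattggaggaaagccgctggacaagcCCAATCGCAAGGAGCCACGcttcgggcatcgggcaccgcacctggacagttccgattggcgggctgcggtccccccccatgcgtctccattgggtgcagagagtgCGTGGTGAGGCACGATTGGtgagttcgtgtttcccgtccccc
Herpud1, chr8:94386179-94386428, plus strand: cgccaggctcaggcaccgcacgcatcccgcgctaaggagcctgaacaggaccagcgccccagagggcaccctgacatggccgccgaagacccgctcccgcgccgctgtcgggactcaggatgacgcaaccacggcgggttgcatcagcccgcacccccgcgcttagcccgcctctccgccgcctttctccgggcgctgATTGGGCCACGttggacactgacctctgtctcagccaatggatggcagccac
With 1 letter of ERSE allowed to differ, a further match was found for Hsp90b1, for Pdia4 on the opposite strand between 108 and 90 bases before the start, and for Herpud1 at the start itself. Such looser matches occurred in 1.5038% of all windows. The windows of Xbp1, Dnajb9, Sdf2l1 and Edem1 held none of these matches, and no window of the 8 genes held UPRE. A match in a window is a description of its letters, and binding was not measured.

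After CD95-Ab, 8 of the 10 genes were higher than after saline, Herpud1 was lower, and Pdia4 did not pass the test. The quasi-likelihood test of edgeR compared the groups gene by gene, and the Benjamini-Hochberg adjustment over all 13719 tested genes gave a false discovery rate (FDR), with a threshold of 0.05 or less. Of all tested genes, 47.3% passed this threshold, 25.4% as higher and 22.0% as lower, against which the 8 and 1 of 10 are to be read. The median log2 fold change was 0.97 over the 10 genes and 0.01 over all tested genes. Because the 10 genes were chosen with earlier results known, their contrasts with all tested genes are a description and not a test. For 6 of the 10 genes every CD95-Ab mouse lay above every saline mouse, and for 1 every CD95-Ab mouse lay below, compared with 18.6% and 14.7% of all tested genes. When a log2 fold change of at least 2 was also required, as in the methods of the study, only Hyou1 of the 10 genes remained higher, against 6.59% of all tested genes. Hyou1 lay close to this limit, with log2 fold changes between 1.84 and 2.16 when a mouse was left out. Levels are given below as CPM, which are counts per 1000000 of a library total adjusted with TMM factors, and as mean ± SD of 5 mice per group.

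**Figure D1:**
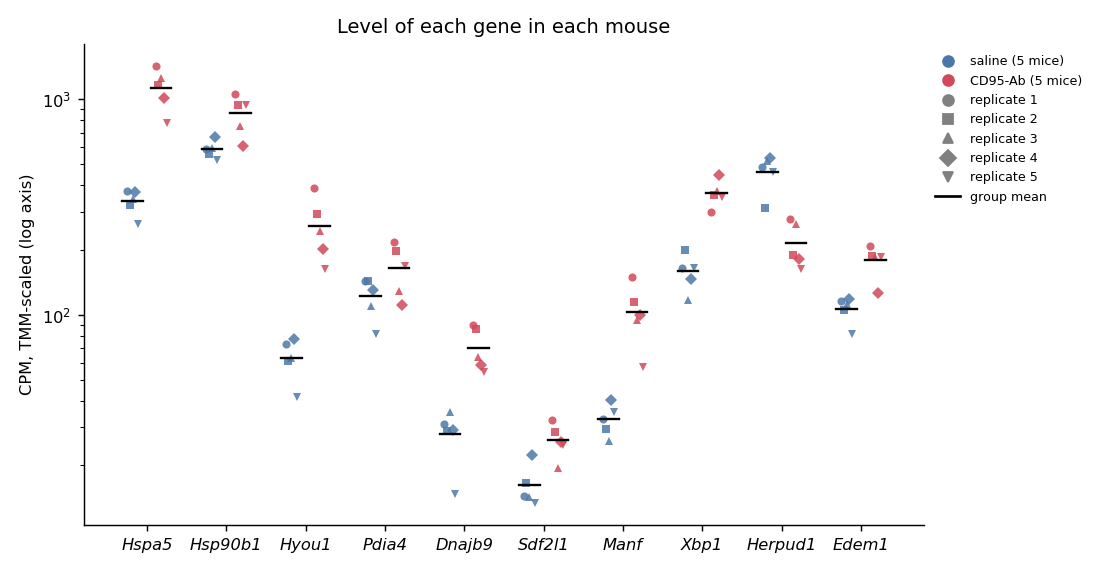
Level of the 10 genes in CPM on a log axis, with 1 point per mouse (saline blue, CD95-Ab red, symbol by replicate number) and a black bar at each group mean. Red points lie above all blue points for Hspa5, Hyou1, Dnajb9, Manf, Xbp1 and Edem1, below them for Herpud1, and overlap them for Hsp90b1, Pdia4 and Sdf2l1.

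Hspa5 (ENSMUSG00000026864, chr2:34771970-34777547, plus strand, GRCm38) encodes BiP, the main Hsp70 chaperone of the ER lumen, which also holds the sensors inactive. Its level was 376, 324, 342, 371 and 264 CPM in saline mice 1 to 5, and 1427, 1165, 1249, 1015 and 778 CPM in CD95-Ab mice 1 to 5. The groups did not overlap, and the lowest value in each group was that of mouse 5. The mean rose from 335 ± 45.2 to 1127 ± 245 CPM, a 3.36-fold increase (log2 fold change 1.75, SE 0.18, 95% interval 1.35 to 2.15, edgeR FDR = 1.75e-05, n = 5 per group).

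Hyou1 (ENSMUSG00000032115, chr9:44379490-44392369, plus strand) encodes an ER relative of Hsp70 that exchanges nucleotide on BiP. It measured 72.9, 61.2, 62.9, 77.4 and 41.6 CPM in the saline mice and 387, 292, 246, 202 and 163 CPM in the CD95-Ab mice. CD95-Ab mouse 1 was highest and mouse 5 lowest, and even mouse 5 exceeded all saline mice. The estimated fold change was the largest of the 10, at 4.08 (63.2 ± 13.8 to 258 ± 86.9 CPM, log2 fold change 2.03, SE 0.24, edgeR FDR = 4.50e-05).

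Hsp90b1 (ENSMUSG00000020048, chr10:86690209-86705509, minus strand) encodes GRP94, the Hsp90 chaperone of the ER. It was at 588, 556, 592, 669 and 521 CPM in the saline mice and at 1056, 943, 754, 608 and 939 CPM in the CD95-Ab mice. CD95-Ab mouse 4 fell within the saline range, and the other 4 lay above it. The mean was 585 ± 55.0 and 859.9 ± 178 CPM, and the 1.47-fold difference passed the threshold (log2 fold change 0.56, SE 0.17, edgeR FDR = 0.0166). That call was lost when libraries were scaled by total counts only (log2 fold change 0.50, edgeR FDR = 0.0873) and when the replicate number was added as a block (log2 fold change 0.54, edgeR FDR = 0.0528).

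Pdia4 (ENSMUSG00000025823, chr6:47796141-47813430, minus strand) encodes ERp72, a protein disulfide isomerase. Its values were 144, 143, 110.1, 130 and 81.5 CPM after saline and 217, 198, 128, 111 and 169 CPM after CD95-Ab. CD95-Ab mice 3 and 4 lay inside the saline range and the other 3 above it. The means of 122 ± 26.4 and 165 ± 45 CPM did not differ at the threshold (log2 fold change 0.44, 95% interval -0.03 to 0.90, edgeR FDR = 0.111). Without CD95-Ab mouse 4 the difference passed it (log2 fold change 0.54, edgeR FDR = 0.0431).

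Dnajb9 (ENSMUSG00000014905, chr12:44205559-44210326, minus strand) encodes ERdj4, a J-domain cochaperone of BiP that also restrains IRE1. It was measured at 31.1, 28.9, 35.5, 29.2 and 14.7 CPM in the saline mice and at 89.9, 86.1, 63.9, 58.2 and 54.0 CPM in the CD95-Ab mice. The groups were separate, with saline mouse 5 well under the other saline mice. The mean rose 2.53-fold from 27.9 ± 7.80 to 70.4 ± 16.5 CPM (log2 fold change 1.34, SE 0.23, edgeR FDR = 5.67e-04).

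Sdf2l1 (ENSMUSG00000022769, chr16:17130138-17132383, minus strand), whose product joins ERdj3 in chaperone complexes of the ER, was the gene with the fewest counts. Saline mice had 14.5, 16.5, 14.2, 22.5 and 13.4 CPM, and CD95-Ab mice had 32.4, 28.5, 19.4, 25.6 and 24.8 CPM. CD95-Ab mouse 3 was below saline mouse 4, and the other 4 CD95-Ab mice were above all saline mice. The means of 16.2 ± 3.68 and 26.2 ± 4.80 CPM gave a 1.62-fold increase (log2 fold change 0.69, SE 0.17, edgeR FDR = 0.0058).

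Manf (ENSMUSG00000032575, chr9:106838312-106891979, minus strand) encodes a small ER protein that is secreted under stress and has trophic activity. It was at 32.8, 29.5, 26.1, 40.3 and 35.4 CPM after saline and at 149, 114, 94.1, 100.2 and 57.1 CPM after CD95-Ab. Each CD95-Ab mouse exceeded each saline mouse, and the CD95-Ab values were spread from 57.1 to 149 CPM. The increase was 3.14-fold (32.8 ± 5.48 to 103 ± 33.3 CPM, log2 fold change 1.65, SE 0.22, edgeR FDR = 1.10e-04). The annotated span of Manf overlaps Dcaf1 on the other strand, and whether strand was used in counting is not given in the sources used here. Dcaf1 measured 24.7 ± 1.96 and 28.4 ± 2.90 CPM and did not pass the test (edgeR FDR = 0.139). On the same strand Rbm15b also overlaps Manf, with at most 3.92% of the Manf count in any mouse. The antisense gene 4930524O07Rik had at most 2.46%.

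Xbp1 (ENSMUSG00000020484, chr11:5520659-5525893, plus strand) encodes the transcription factor downstream of IRE1. It was at 165, 199, 117, 147 and 165 CPM in the saline mice and at 301, 361, 374, 443 and 350.5 CPM in the CD95-Ab mice. The groups did not overlap, and here CD95-Ab mouse 4 was highest and mouse 1 lowest. The mean rose 2.30-fold from 159 ± 29.8 to 366 ± 51.1 CPM (log2 fold change 1.20, SE 0.16, edgeR FDR = 9.65e-05). These counts per gene do not separate the spliced from the unspliced form of the mRNA.

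Herpud1 (ENSMUSG00000031770, chr8:94386438-94395377, plus strand) encodes HERP, an ER membrane protein that helps to assemble the degradation complex around the ubiquitin ligase HRD1. It measured 482, 312, 514, 532 and 459 CPM after saline and 277, 190.1, 263, 181 and 162 CPM after CD95-Ab. All CD95-Ab mice lay below all saline mice, the nearest being CD95-Ab mouse 1 and saline mouse 2. The mean was 459.7 ± 87.4 CPM after saline and 215 ± 51.7 CPM after CD95-Ab, a level 2.14-fold higher in saline (log2 fold change -1.10, SE 0.20, 95% interval -1.53 to -0.67, edgeR FDR = 7.67e-04). An antisense gene, Gm15890, overlaps Herpud1, with at most 0.23% of the Herpud1 count in any mouse.

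Edem1 (ENSMUSG00000030104, chr6:108828641-108859356, plus strand) encodes a mannosidase-like protein that takes misfolded glycoproteins to degradation. Saline mice had 116, 105, 112, 118 and 81.6 CPM, and CD95-Ab mice had 208, 188, 186, 126 and 185 CPM. CD95-Ab mouse 4 stood apart from the other 4 at the low end, although it still exceeded every saline mouse. The mean rose 1.68-fold from 107 ± 14.7 to 179 ± 30.6 CPM (log2 fold change 0.75, SE 0.16, edgeR FDR = 0.00204). Of the degradation genes among the 10, Edem1 thus rose and Herpud1 fell.

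**Figure D2:**
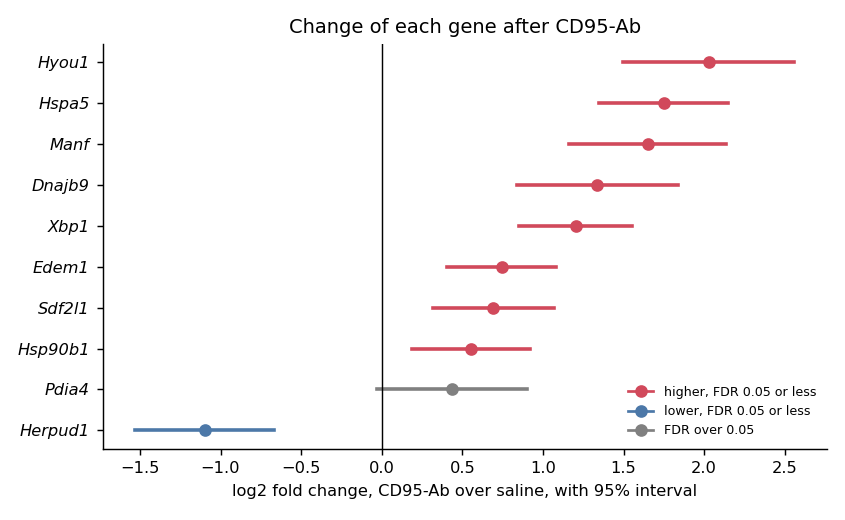
Log2 fold change of CD95-Ab over saline for each gene (point) with its 95% interval (line), coloured by call at an FDR of 0.05 or less. Intervals run from 1.50 to 2.56 for Hyou1 at the top to -1.53 to -0.67 for Herpud1 at the bottom, and that of Pdia4 includes 0.

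The summed level of the 10 genes was 1907 ± 185 CPM after saline, with a range of 1677 to 2136, and 3368 ± 531 CPM after CD95-Ab, with a range of 2870 to 4145. Hspa5 made up 17.5% ± 1.10 of it in saline mice and 33.3% ± 3.85 in CD95-Ab mice, with ranges of 15.8 to 18.6% and 27.0 to 37.0% that did not overlap. The share of Herpud1 was 24.1% ± 3.89 and 6.35% ± 0.968, again without overlap. This separation was fixed by the levels, since every CD95-Ab mouse had less Herpud1 and a higher sum than any saline mouse.

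The FPKM values of the authors, which are scaled for transcript length, allow levels to be ordered between genes. After saline the order began with Herpud1 at 271 ± 43.0 FPKM, Hsp90b1 at 220.1 ± 32.2 and Hspa5 at 142 ± 29.0. Xbp1 at 85 ± 21.5, Pdia4 at 52.8 ± 15.8 and Manf at 42.6 ± 6.65 followed. Herpud1 exceeded Hsp90b1, and Pdia4 exceeded Manf, in 4 of 5 saline mice each. The lowest were Edem1 at 19.1 ± 3.98, Dnajb9 at 16.2 ± 5.35, Sdf2l1 at 16.0 ± 3.91 and Hyou1 at 15.4 ± 4.17 FPKM, and neighbours among these 4 kept their order in only 3 or 4 of 5 saline mice. After CD95-Ab, Hspa5 led with 464 ± 128 FPKM, ahead of Hsp90b1 with 310.0 ± 96.3. Xbp1 with 191 ± 12.9 and Manf with 127 ± 54.1 followed, and each of these steps held in 4 of 5 mice. Herpud1 came next with 118 ± 35 FPKM and did not separate from Manf, which exceeded it in 3 of 5 mice. Pdia4 with 67.9 ± 25.5 FPKM and Hyou1 with 59.7 ± 26.4 were in this order in 2 of 5 mice. Dnajb9 with 38.5 ± 12.7, Edem1 with 30.4 ± 8.0 and Sdf2l1 with 24.6 ± 7.0 FPKM closed the order. Each step among these last genes also held in 4 of 5 mice.

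To compare the extent of the increase between genes without a library scaling, the count of Hspa5 was divided by that of each other gene within a mouse, and the log2 ratios of the groups were compared with an exact two-sided permutation test. The Benjamini-Hochberg adjustment covered these 9 comparisons, and 0.00794 is the smallest that 5 mice against 5 allow. The median of Hspa5 per Hsp90b1 count was 0.578 after saline and 1.35 after CD95-Ab, and the mean log2 ratio differed by 1.20 (exact permutation p = 0.00794, adjusted p = 0.0143). Hspa5 also gained on Pdia4 by 1.31, on Sdf2l1 by 1.03 and on Edem1 by 0.99 on the log2 scale, each with the same exact permutation p and adjusted p, and with no overlap of the groups. Against Herpud1 the median ratio went from 0.697 to 5.16, a difference of 2.84 on the log2 scale. Its exact permutation p of 0.00794 (adjusted p = 0.0143) was fixed by the levels above and adds nothing to them. Every CD95-Ab mouse was above every saline mouse for Hspa5 and below all for Herpud1, so the ratios had to separate.

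For the other 4 genes the difference from Hspa5 did not pass the adjusted threshold. The log2 ratio of Hspa5 differed by 0.52 against Xbp1 (exact permutation p = 0.0873, adjusted p = 0.0982), by 0.37 against Dnajb9 (exact permutation p = 0.0794, adjusted p = 0.0982) and by 0.13 against Manf (exact permutation p = 0.5). Against Hyou1 it was -0.27 (exact permutation p = 0.0397, adjusted p = 0.0595), the estimated increase being greater for Hyou1. These p-values do not show that the 5 genes changed alike.

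**Figure D3:**
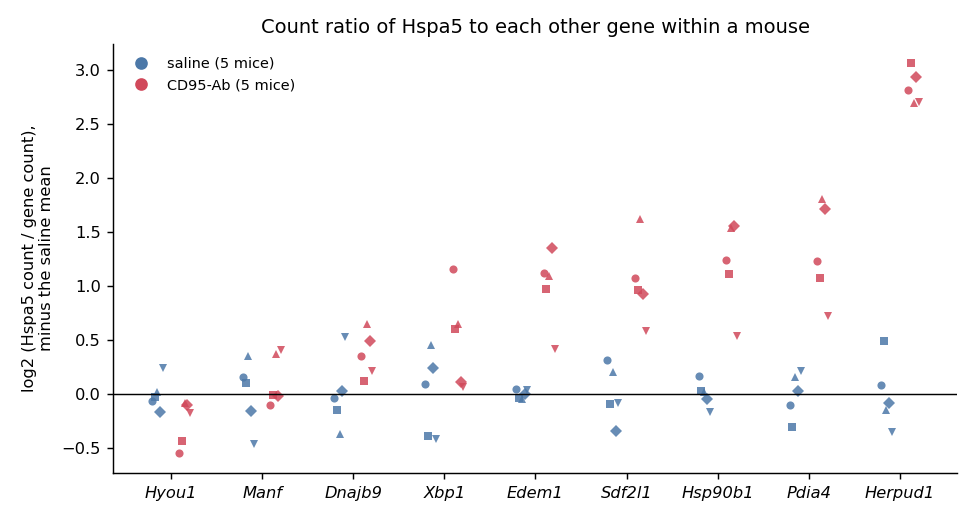
Log2 of the count ratio of Hspa5 to each other gene, minus the saline mean of that ratio, with 1 point per mouse (saline blue, CD95-Ab red, symbol by replicate number). Red points lie above all blue points for Edem1, Sdf2l1, Hsp90b1, Pdia4 and Herpud1, and overlap them for Hyou1, Manf, Dnajb9 and Xbp1.

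The order of the mice within each group was compared over the 10 genes. CD95-Ab mouse 1 had the highest value of its group for 9 of the 10 genes and the lowest for Xbp1. Mouse 4 was highest for Xbp1 and lowest for Hsp90b1, Pdia4 and Edem1, whereas mouse 5 was lowest for 5 genes and above the group median for 0. Among saline mice, mouse 4 was highest for 6 genes, and mouse 5 was lowest for 7. Saline mouse 5 and CD95-Ab mouse 5 each had the deepest library of their group, and the part of depth in their low values was not tested.

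**Figure D4:**
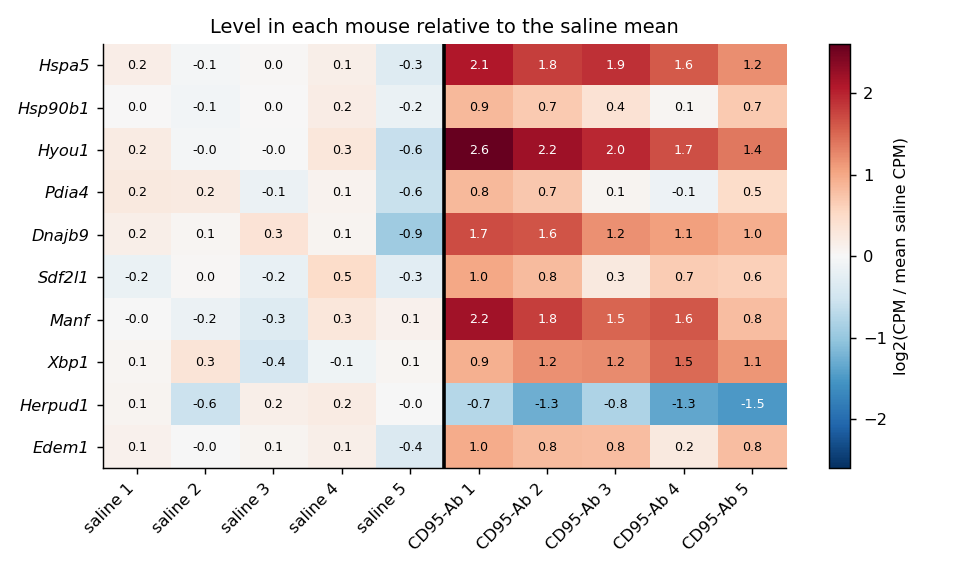
Log2 of the CPM in each mouse over the mean saline CPM, with genes in rows and the 10 mice in columns, red above and blue below the saline mean. Hspa5, Hyou1, Dnajb9, Manf and Xbp1 are red in all 5 CD95-Ab mice, Herpud1 is blue in all 5, and Hsp90b1 and Pdia4 are near the saline mean in CD95-Ab mouse 4.

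Deviations from the group mean of log2 CPM were correlated with those of Hspa5 over the 10 mice, as a description. The 10 mice share the 2 group means removed from them, and each value of a mouse comes from the same library. Hyou1 had the closest pattern of the genes described, with a Pearson correlation of 0.945, followed by Dnajb9 with 0.760, Manf with 0.708 and Herpud1 with 0.666. Edem1 had 0.561, Pdia4 0.462, Sdf2l1 0.342, Hsp90b1 0.323 and Xbp1 -0.29, and the median of 7006 other tested genes with a mean of at least 10 CPM was 0.0541. Herpud1 thus went the other way between groups, although its deviations pooled over both groups correlated positively with those of Hspa5. The correlation was not taken within each group. Among saline mice, Hspa5 was lowest in mouse 5 and Herpud1 in mouse 2. The 5 genes outside the list with the highest correlations were Cops7a with 0.952, Mcrip1 with 0.920, Yif1a with 0.912, Egln2 with 0.908 and Gle1 with 0.899. None of these 5 rose between groups, with log2 fold changes of -0.26, -0.04, -0.38, -0.62 and -0.22 in that order, of which those of Yif1a (edgeR FDR = 0.0141) and Egln2 (edgeR FDR = 0.00807) passed as lower.

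The surrounding pathway was followed in 6 lists, which were also chosen with earlier results known. Their shares are to be read against the 25.4% higher and 22.0% lower of all tested genes and the median of 0.01. Of 30 tested genes of other ER chaperones and folding enzymes, 7 rose (23.3%) and 2 fell (6.67%), with a median log2 fold change of 0.09, so the share that rose was near that of all tested genes. Ero1a, the oxidase that recharges protein disulfide isomerases, rose from 18.9 ± 3.15 to 67.6 ± 29.5 CPM (log2 fold change 1.84, edgeR FDR = 1.2e-04). Creld2, an ER-resident protein induced by ER stress, went from 16.4 ± 4.93 to 56.9 ± 26.2 CPM (log2 fold change 1.80, edgeR FDR = 4.30e-04), and Hspa13, an Hsp70 relative, rose by 1.44. Cnpy2 fell by 0.44 and Sil1, another nucleotide exchange factor of BiP, fell by 0.37 on the log2 scale. The lectin chaperones of glycoproteins, Calr at 559 ± 49.2 and 666 ± 85.8 CPM and Canx at 247 ± 57.0 and 290.5 ± 57.5 CPM, did not pass the test (edgeR FDR = 0.147 and 0.367), and are named because their promoter sites are shown.

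Among 25 tested genes of ER-associated degradation other than Edem1 and Herpud1, 4 rose (16%) and 4 fell (16%), with a median of 0.07, and both shares were below those of all tested genes (25.4% and 22.0%). Syvn1, which encodes the ubiquitin ligase HRD1, rose from 44.4 ± 1.49 to 96.1 ± 30.8 CPM (log2 fold change 1.11, edgeR FDR = 7.85e-04). Ubxn4 and Selenos, which recruit the segregase VCP to the ER membrane, rose by 0.50 and 0.37. Derl2, a component of the same machinery, fell by 0.72, and the ligases Rnf139 and Rnf5 fell by 0.60 and 0.45 on the log2 scale.

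Of 18 tested genes for sensors, their processing and the transcription factors beside them, 9 rose (50%) and 3 fell (16.7%), with a median of 0.41, against 25.4% and 22.0% of all tested genes. Eif2ak3, which encodes PERK, rose from 10.5 ± 0.878 to 40.5 ± 11.6 CPM (log2 fold change 1.95, edgeR FDR = 5.87e-06). The genes of the other sensors, chosen after their values were seen, did not pass, with log2 fold changes of -0.19 for Ern1, which encodes IRE1α (edgeR FDR = 0.554), and 0.22 for Atf6 (edgeR FDR = 0.488). The difference between Eif2ak3 and these genes was not tested. Creb3l2, a membrane-bound factor related to ATF6, rose from 17.0 ± 2.24 to 76.3 ± 7.40 CPM (log2 fold change 2.17, edgeR FDR = 3.95e-07), and Atf6b rose by 0.85. Creb3l3, the liver member of that family, went from 252 ± 46.9 to 139 ± 20.7 CPM (log2 fold change -0.86, edgeR FDR = 8.56e-04), and Tmbim6 and Nfyc fell by 0.39 and 0.28 on the log2 scale. Without saline mouse 1, 2 or 4, or CD95-Ab mouse 1 or 5, 1 rather than 3 genes of this list were called lower.

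In the PERK and ATF4 arm, 10 of 20 tested genes rose (50%) and 5 fell (25.0%), with a median of 0.42, against 25.4% and 22.0% of all tested genes. Atf4 itself rose from 68.4 ± 14.6 to 138 ± 20.3 CPM (log2 fold change 1.01, edgeR FDR = 3.30e-04), and Ddit3, which encodes the factor CHOP, rose from 5.46 ± 2.13 to 16.0 ± 6.71 CPM (log2 fold change 1.55, edgeR FDR = 0.00186). Atf3, a stress-induced repressor, had the greatest change, from 12.5 ± 10.6 to 249 ± 85.7 CPM (log2 fold change 4.31, edgeR FDR = 1.51e-04). Gdf15, a stress cytokine, rose by 2.55, and Ppp1r15a, whose product GADD34 directs dephosphorylation of eIF2α, rose by 1.65. The pseudokinase gene Trib3 fell from 14.4 ± 1.86 to 6.28 ± 2.76 CPM (log2 fold change -1.20, edgeR FDR = 0.00224). Chac1, which encodes a glutathione-degrading enzyme, fell by 0.92 on the log2 scale. The hepatic hormone gene Fgf21 fell by 2.91, from a saline level of 5.78 ± 6.48 CPM that varied more than its mean.

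Genes for entry into the ER and for N-glycosylation comprised 36 tested genes, of which 12 rose (33.3%, against 25.4% of all tested genes) and 0 fell (against 22.0%), with a median of 0.25. At an unadjusted p under 0.05, edgeR and its likelihood ratio test placed 0 of the 36 as lower and DESeq2 placed 1, and none was called lower by any of these tools. Srprb, a subunit of the receptor of the signal recognition particle, rose from 12.6 ± 1.07 to 29.3 ± 8.02 CPM (log2 fold change 1.22, edgeR FDR = 1.48e-04), and Sec61g, a subunit of the translocon, rose by 0.90. Srp54c rose by 0.76, but it has close copies in the genome and its value is uncertain. Without saline mouse 2, or without CD95-Ab mouse 2, 7 of these genes were called higher rather than 12.

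Of 40 tested genes for transport between the ER and the Golgi, 13 rose (32.5%) and 6 fell (15%), with a median of 0.25, against 25.4% and 22.0% of all tested genes. Sec23b, which encodes a coat protein of vesicles leaving the ER, rose from 22.8 ± 5.15 to 71.5 ± 22.3 CPM (log2 fold change 1.65, edgeR FDR = 1.2e-04). Arfgap3 rose by 1.63 and Sec24d, another subunit of that coat, by 0.99. Tango2 fell by 0.88, and Mia3 and Mia2, which help to load large cargo such as lipoproteins, fell by 0.66 and 0.57 on the log2 scale.

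**Figure D5:**
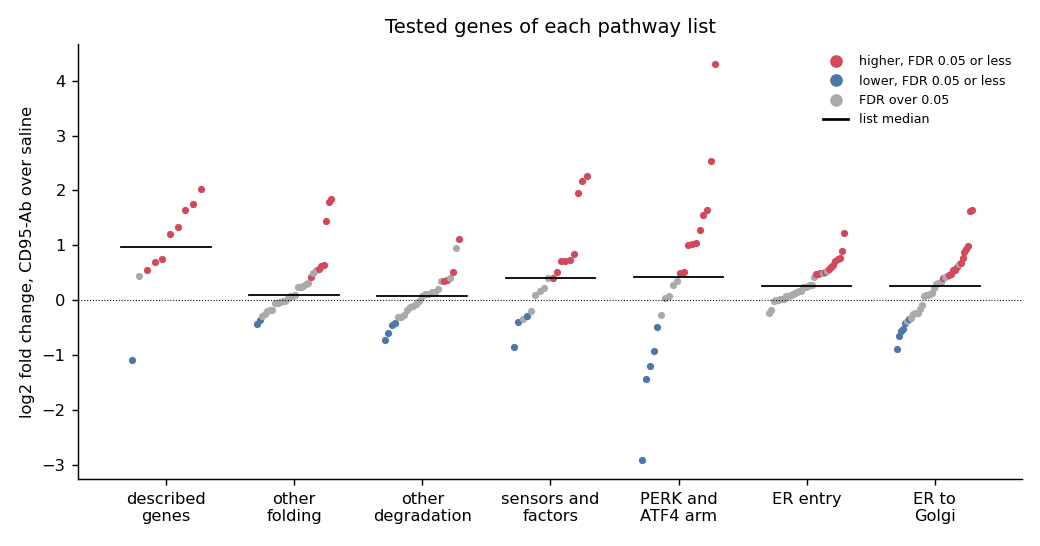
Log2 fold change of CD95-Ab over saline for each tested gene (point), sorted within the 10 described genes and the 6 pathway lists, red for higher and blue for lower at an FDR of 0.05 or less, with list medians as black lines. Medians are 0.97 for the described genes, between 0.07 and 0.09 for the folding and degradation lists, and between 0.25 and 0.42 for the other 4.

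Over the whole annotation, 20 tested genes had an exact ERSE in their window, and 9 of these were higher and 1 lower, with a median log2 fold change of 0.60. They include Hspa5 and Hsp90b1 and the 8 genes of the pathway lists, of which 6 did not pass the test. Of 8 tested genes with ERSE-II, Herpud1 among them, 3 were higher and 1, Herpud1, was lower, with a median of 0.19. Of 104 tested genes with UPRE, 30 were higher and 17 lower, with a median of 0.11. Of all 10509 tested genes with a window, 2597 were higher and 2382 lower, with a median of -0.01.

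The summed markers of cell types in the liver moved with the groups, except that the ranges for B and plasma cells overlapped. Their part in the changes above was not tested. The calls are to be read against the 25.4% higher and 22.0% lower of all tested genes. The 12 hepatocyte markers summed to between 133499 and 151171 CPM after saline and between 78238 and 119225 CPM after CD95-Ab, with 4 of 12 lower and 1 higher. The summed level rose from between 16.8 and 64.8 to between 1334 and 2874 CPM for neutrophil markers (10 of 10 tested genes higher), although Ly6g stayed under 1 CPM in every mouse. It went from 158 to 493 up to 520 to 912 CPM for macrophage markers (5 of 10 higher), from 70.7 to 156 up to 235 to 445 CPM for endothelial markers (8 of 9 higher) and from 18.4 to 33.9 up to 48.4 to 186 CPM for cholangiocyte markers (4 of 5 higher, Cftr under 1 CPM in every mouse). Erythroid markers went from 135 to 325 up to 1064 to 34013 CPM, with 7 of 7 higher. For markers of B and plasma cells, the summed range was 98.5 to 173 CPM after saline and 166 to 207 CPM after CD95-Ab. Of the tested genes, 4 of 7 were higher, and plasma cells are known for a high content of ER chaperones. This list includes Sdc1, and the neutrophil list includes Lcn2. Which cells gave the RNA of these genes was not tested. The plasma cell markers Jchain, Mzb1, Tnfrsf17 and Irf4 were under 1 CPM in every mouse. No marker of these 7 lists was at 0 in every mouse.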

How the data were processed

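Liver RNA of 10 mice was analysed, 5 after saline and 5 after CD95-Ab, each labelled a biological replicate. Reads of 100 bp in pairs were aligned and assigned by the authors with RSEM 1.2.19, who deposited per gene an expected count and an FPKM value. The deposited expected counts carry no normalization and were found to be whole in every mouse. The deposited FPKM values are scaled for transcript length and library total, and were used only to order levels between genes and as an alternative for the summed level. The methods name a human annotation, whereas the identifiers are those of mouse Ensembl genes, and the mouse build is not given in the sources used here. Symbols, positions and exons came from GENCODE mouse release 21 (GRCm38), which held 37606 of 38922 identifiers. RSEM divides reads that match several genes, so values of close paralogs depend on that step.

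Genes were kept with filterByExpr (minimum count 10) and tested by quasi-likelihood in edgeR 4.0.16 (R 4.3.3) with TMM factors and no term besides group. The code was tested on simulated data. Alternatives were DESeq2 1.42.0, other factors, filters and thresholds, a replicate block and leaving out each mouse. Exact permutation tests used scipy 1.17.1 in Python 3.11.15. At these depths 3 counts correspond to between 0.0483 and 0.116 CPM. Genes named from each pathway list were the 3 called genes with the largest change in each direction and a mean of at least 5 CPM in the higher group, besides Atf4, Ddit3, Trib3 and Atf3. Ern1, Atf6 and the genes named for an ERSE in their promoter (Calr, Canx, Dnajc3, Pdia6, Ero1b and Derl3) fall outside this rule and were chosen after their values were seen. Promoter windows were tied to genes by symbol, or else by the NCBI gene number that GENCODE gives. Srp54b of the entry list was not analysed here. The genes described, the lists and the ratios to Hspa5 were chosen with earlier results of these data known.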

Additional observations from a re-analysis of the deposited data

Results flagged for a closer look

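Edem1 in CD95-Ab mouse 4 lay far from the rest of its group. Its level of 126 CPM was the lowest of the 5 CD95-Ab mice, and the nearest of the others was at 185 CPM. The gap made up 0.714 of the range of the group, above the critical value of 0.71 in Dixon's test for 5 samples. This was the only such value among 20 groups examined (10 genes in 2 groups), and chance marks about 1 in 20. Edem1 remained higher after CD95-Ab in each of the 10 fits that left out a mouse, with log2 fold changes between 0.66 and 0.83.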

How the results depend on the processing

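The 8 higher genes and the 1 lower gene of the 10 were counted alike, within 1.5 times, under DESeq2, the likelihood ratio test, other factors, other filters, the block and an FDR of 0.01, and with each mouse left out (8 to 9 higher, 1 to 1 lower, summed level 0.73 to 0.87 on the log2 scale). A log2 fold change of at least 1 in size left 5 of them higher, and one of at least 2 left 1 higher and 0 lower. No result changed direction. In the lists, scaling by total counts only left 4 folding, 1 degradation and 6 entry genes higher. Without a filter, 2 degradation genes were higher and 1 sensor gene lower, and with 10 counts required in every mouse 1 sensor gene was lower. At an FDR of 0.01, 4 folding, 2 degradation, 6 entry and 8 transport genes were higher, and 2 degradation genes and 1 sensor gene lower. At a log2 fold change of at least 1, 3 folding, 1 degradation, 3 sensor, 1 entry and 2 transport genes were higher, and 0 folding, 0 degradation, 0 sensor, 3 PERK arm and 0 transport genes lower. At 2, the higher genes were 0 folding, 0 degradation, 2 sensor, 2 PERK arm, 0 entry and 0 transport genes, and the lower ones 0 folding, 0 degradation, 0 sensor, 1 PERK arm and 0 transport genes. With a mouse left out, 1 to 3 sensor genes were lower and 7 to 15 entry genes higher. Fewer genes pass a stricter threshold by construction, and the cause of the other differences was not tested.

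With the replicate number as a block, 1 sensor gene was lower, Hsp90b1 lost its call, and 5987 of all genes were called instead of 6495. Deviations of mice with the same number correlated between -0.27 and 0.257, and 4 of 10 mice correlated best with their own number. These correlations are too few to tell whether mice with the same number share anything besides it.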
